A study of Mus musculus with 8 samples.

Results

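The genes described here are 10 genes that mark the epithelial-to-mesenchymal transition (EMT), out of the 41457 genes in the deposited tables. They are the rows named Snai1, Snai2, Zeb1, Zeb2, Twist1, Vim, Cdh1, Cdh3, Cdh2 and Esrp1. Their levels in keratinocytes (KCs), the epithelial cells of the epidermis, were compared between 4 samples grown for 1 week in culture and 4 grown for 3 weeks. All samples were KCs of wild type mice (C57BL/6 in the labels, C57BL/6J in the methods of the study), taken from the tail skin of adults, grown in serum-free medium with 0.06 mM calcium and left untreated, so that the groups differed by label only in the time of culture. Poly(A) RNA was sequenced, and the authors gave reads on exons and RPKM values, which scale the exon reads of a gene by its exon length and by sequencing depth.

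In EMT, epithelial cells loosen their contacts and take on features of mesenchymal cells, a process known from development, wound repair and tumours. The transcription factors of the SNAIL, ZEB and TWIST families bind short E-box letters in DNA and repress epithelial genes, among them Cdh1. Cdh1 encodes E-cadherin, which joins epithelial cells at adherens junctions through catenins, and a gain of N-cadherin (Cdh2) together with the intermediate filament protein vimentin (Vim) is the classical sign of the mesenchymal state. In the epidermis, basal KCs carry both E-cadherin and P-cadherin (Cdh3).

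Of the 10 genes, 8 had enough reads to be tested, and 4 of these 8 changed between 1 and 3 weeks. Cdh2, Zeb1 and Zeb2 rose and Esrp1, which encodes a splicing factor of epithelial cells, fell. Snai2, Vim, Cdh1 and Cdh3 did not pass the threshold, and Snai1 and Twist1 had too few reads. Changes are log2 fold changes of exon reads, 3 weeks over 1 week, after TMM normalization, with adjusted p-values from edgeR's quasi-likelihood test (Benjamini-Hochberg over all 12590 tested genes, threshold 0.05). Of all tested genes, 32.8% passed in either direction, 15.7% being higher and 17.0% lower after 3 weeks. The counts here, 3 higher and 1 lower among 8, stand beside that broad background. Of the 3 that were higher, Zeb1 was above the filter on low counts only through its 3-week samples. It had 12 to 49 exon reads there, against 2 to 8 at 1 week. The fit does not pair the samples, although the study describes the same KC batches at both times. In a fit on the 6 samples whose deposited names share 1 of 3 numbers between the times, taken here as shared preparations, the calls of Zeb2 (adjusted p = 0.0645) and Esrp1 (adjusted p = 0.164) were lost and Cdh1 passed as higher (adjusted p = 0.0436, edgeR). On the log2(RPKM + 0.1) scale, where 4 genes passed as well, 2 were higher and 2 lower. With single samples left out, 2 genes (Cdh2 and Zeb1) passed without replicate 1, 2 or 4 of the 1-week group. The same 2 passed without replicate 1 or 2 of the 3-week group. Without 3 weeks replicate 3, 6 passed, among them Snai1, which was then above the filter through its 3-week samples. The RPKM values of the 2 groups did not overlap for 4 of the 8 tested EMT genes, compared with 37.0% of all tested genes.

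The exon reads of a sample numbered between 13896807 and 20026084. The design text of the series names 4 independent experiments, while nothing says which cultures came from separate animals, so p-values measure the spread between these samples. The sample 3 weeks replicate 3 stood apart. Mitochondrial genes took 13.3% of its exon reads and between 2.19% and 4.43% in the other 7 samples. Its long transcripts were low, and those of 3 weeks replicate 4 were high. In replicate 3 the median log2 deviation from the group mean was 0.41 for 1054 genes with under 2 kilobases of exon and -0.23 for 2979 genes with over 6 kilobases. In replicate 4 the corresponding values were -0.32 and 0.16. The 8 tested EMT genes have exon lengths from 2021 to 19942 bases, and several of the results below moved with these 2 samples.

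**Figure D1:**
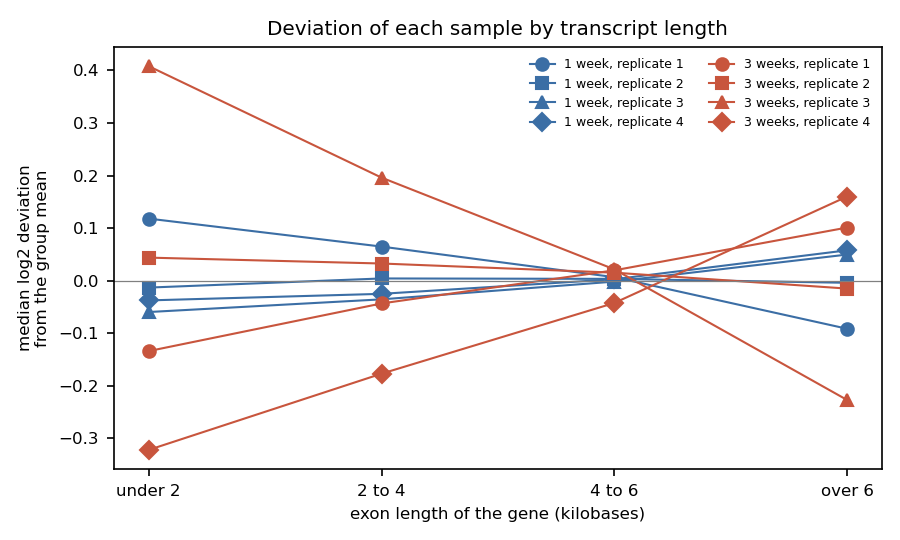
Median log2 deviation of TMM-scaled reads from the mean of the sample's own group (vertical axis) for genes averaging at least 10 CPM, in 4 classes of exon length in kilobases (horizontal axis), with a line for each of the 8 samples. The lines of 3 weeks replicate 3 (from 0.41 to -0.23) and replicate 4 (from -0.32 to 0.16) slope in opposite directions, and the other 6 samples lie closer to 0.

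The KC identity of the cultures was checked on lists of marker genes. All 8 KC markers were present in every sample, with a summed level of 14149.9 to 16996.4 RPKM at 1 week and 9249.7 to 10519.0 RPKM at 3 weeks. Of these 8, 2 fell and 0 rose, beside 17.0% lower and 15.7% higher among all tested genes. Those that fell were Krt5 (log2 fold change -1.32, adjusted p = 0.00103, edgeR) and Itga6 (-0.75, adjusted p = 0.0391, edgeR). Of 10 fibroblast markers, 6 stayed under 1 RPKM in every sample. Their sum was 3.89 to 7.04 RPKM at 1 week and 5.63 to 15.6 RPKM at 3 weeks, and 2.73 to 6.00 RPKM at 3 weeks without Postn. Melanocyte markers summed to between 3.64 and 21.6 RPKM at 1 week and between 1.68 and 6.10 RPKM at 3 weeks. Pericyte and smooth muscle markers summed to between 1.65 and 3.01 RPKM and between 2.22 and 12.6 RPKM, the latter mostly from Notch3. The 8 markers of Langerhans and immune cells summed to between 16.1 and 21.5 RPKM and between 9.07 and 14.1 RPKM, mostly from Cd68, and their defining genes Cd207 and Trdc had no read in any sample. Endothelial, Schwann and Merkel cell markers were each under 1 RPKM in every sample. In bulk RNA, fewer cells of a type and less RNA per cell cannot be told apart.

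Ordered by RPKM, which allows genes to be compared per length, Cdh1 was highest in both groups, at rank 267 of all genes at 1 week and rank 196 at 3 weeks. At 1 week it was followed by Cdh3 (mean 41.2 RPKM), Snai2 (40.6 RPKM) and Esrp1 (33.2 RPKM), whose ranges overlapped from neighbour to neighbour. Vim came next (6.63 RPKM), then Cdh2 (1.08 RPKM), each with no overlap with its neighbours. Twist1, Snai1, Zeb2 and Zeb1 were at most 0.342 RPKM in each 1-week sample. At 3 weeks, Cdh3, Esrp1, Snai2, Vim and Cdh2 formed a chain of overlapping ranges. Snai1 had become the highest of the 4 rare factors and did not overlap with Zeb1, the next one.

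**Figure D2:**
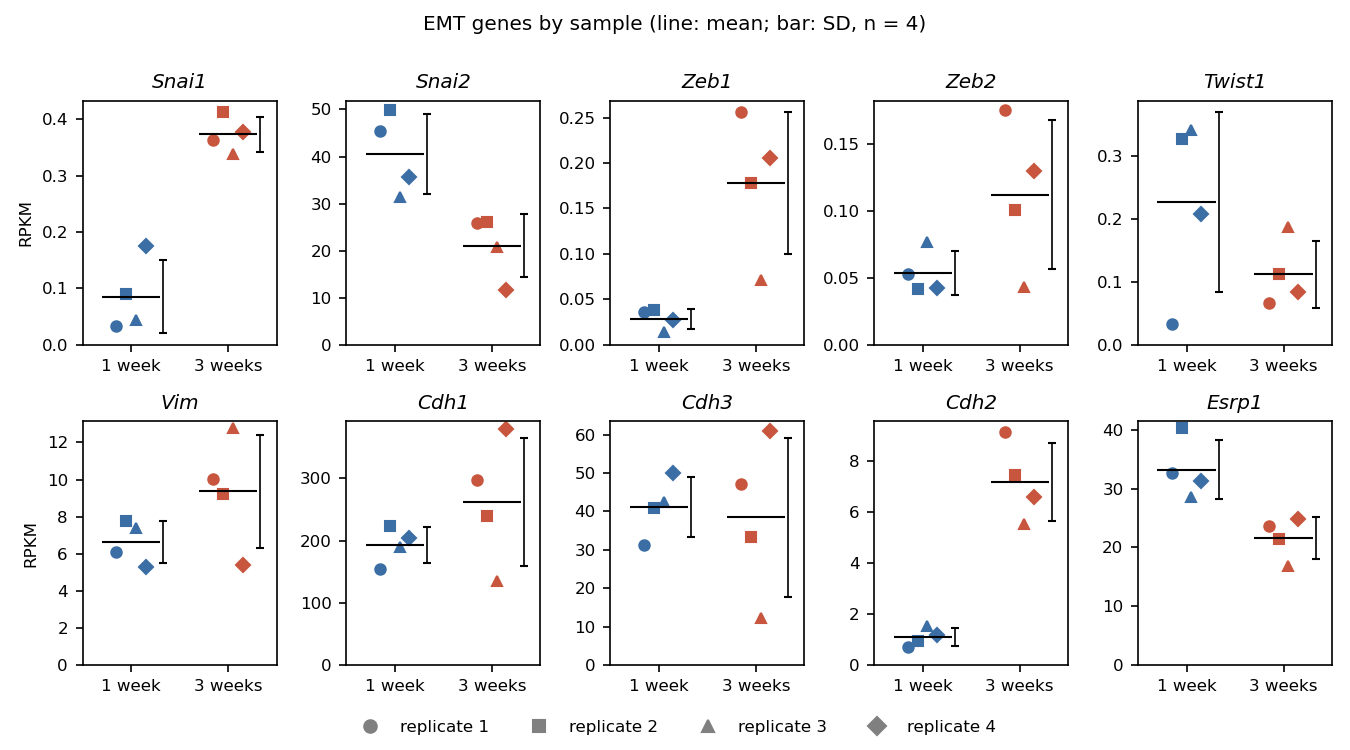
RPKM (vertical axis, linear from 0, a scale for each gene) of the 10 EMT genes in the 4 samples at 1 week (blue) and the 4 samples at 3 weeks (red), with a symbol for each replicate number, a line at the mean and a bar of 1 SD. Snai1, Zeb1 and Cdh2 lie higher in all 3-week samples than in any 1-week sample, Snai2 and Esrp1 lie lower, and the groups of the other 5 genes overlap.

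Among the SNAIL factors, Snai2 (Slug; ENSMUSG00000022676, chromosome 16, 14705852 to 14709385, GRCm38) was by far the most abundant. It was read at 45.4, 49.9, 31.4 and 35.6 RPKM in replicates 1 to 4 at 1 week and at 25.8, 26.0, 20.7 and 11.7 RPKM at 3 weeks. All 3-week samples were below all 1-week samples, with the lowest value in replicate 4. The log2 fold change was -0.78 (SE 0.27, adjusted p = 0.0501, edgeR), just outside the threshold. It lay inside the threshold in 7 of 16 alternatives, which include DESeq2 (-0.77, adjusted p = 0.0218), limma on log2(RPKM + 0.1) (-0.99, adjusted p = 0.0196), the block on the replicate number (-0.83, adjusted p = 0.0389) and the fit without 3 weeks replicate 4 (-0.57, adjusted p = 0.0326). Snai2 made up between 98.5% and 99.7% of the summed RPKM of the 5 EMT factors at 1 week and between 93.6% and 97.0% at 3 weeks. The other 4 factors summed to between 0.153 and 0.497 RPKM at 1 week and between 0.639 and 0.861 RPKM at 3 weeks.

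Snai1 (Snail; ENSMUSG00000042821, chromosome 2, 167538195 to 167542814), a repressor of the E-cadherin gene, was rare. It had 1, 3, 1 and 5 exon reads at 1 week and 11, 11, 9 and 9 reads at 3 weeks, which is 0.0324, 0.0898, 0.0430 and 0.175 RPKM against 0.364, 0.413, 0.338 and 0.378 RPKM. The lowest 3-week value exceeded the highest 1-week value, on few reads. The ratio of summed reads per mapped read, 40 against 10, was 4.33 with an exact 95% interval of 2.13 to 9.71, which covers counting error only. Snai1 did not pass the filter on low counts. Without the filter its log2 fold change was 2.16 (SE 0.56, adjusted p = 0.0197, edgeR), and on the shared preparations it was 2.30 (adjusted p = 0.0519). In the latter fit Snai1 was above the filter through its 3-week samples.

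Zeb1 (ENSMUSG00000024238, chromosome 18, 5591860 to 5775467) and Zeb2 (ENSMUSG00000026872, chromosome 2, 44983632 to 45117395) encode zinc finger factors that repress epithelial genes. Zeb1 was read at 0.0358, 0.0378, 0.0136 and 0.0276 RPKM at 1 week and at 0.256, 0.178, 0.0712 and 0.206 RPKM at 3 weeks, which corresponds to 7, 8, 2 and 5 exon reads against 49, 30, 12 and 31. All 3-week values were above all 1-week values, and the lowest of them was in replicate 3. Zeb1 rose with a log2 fold change of 2.71 (SE 0.44, adjusted p = 0.00221, edgeR), a 6.54-fold difference, and passed in all 16 alternatives. At a level this low it passed the filter through the 3-week group, and at 3 weeks it was still at rank 12980 of all genes. Its intron reads numbered 3, 6, 9 and 8 in the 1-week samples and 7, 8, 11 and 10 in the 3-week samples, and the groups overlapped.

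Zeb2 was at 0.0527, 0.0414, 0.0768 and 0.0426 RPKM at 1 week and at 0.175, 0.101, 0.0427 and 0.130 RPKM at 3 weeks. The groups overlapped, because 3 weeks replicate 3 was as low as the lowest 1-week samples. Zeb2 rose with a log2 fold change of 1.22 (SE 0.41, adjusted p = 0.0464, edgeR), near the threshold. The call was lost in 11 of 16 alternatives. It was lost without replicate 1 (1.21, adjusted p = 0.110), 2 (1.10, adjusted p = 0.115) or 4 (1.12, adjusted p = 0.116) of the 1-week group, and without replicate 1 (0.92, adjusted p = 0.135), 2 (1.27, adjusted p = 0.0777) or 4 (1.16, adjusted p = 0.0711) of the 3-week group, all in edgeR. With the replicate number as a block it was 1.15 (adjusted p = 0.122), and on the shared preparations it was 1.32 (adjusted p = 0.0645). Its intron reads, 3, 3, 1 and 5 at 1 week and 12, 8, 19 and 6 at 3 weeks, did not overlap between the groups and were too few for the filter. The genes on the opposite strand of Zeb1 and Zeb2, among them Zeb2os, had at most 2 exon reads in a sample.

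Twist1 (ENSMUSG00000035799, chromosome 12, 33957671 to 33959829), a basic helix-loop-helix factor, had 1, 11, 8 and 6 exon reads at 1 week and 2, 3, 5 and 2 reads at 3 weeks. The groups overlapped, since 1 week replicate 1 had the fewest reads of all samples. The ratio of summed reads, 12 against 26, was 0.499 (exact 95% interval 0.230 to 1.03, counting error only). It did not pass the filter, and without it the log2 fold change was -0.88 (SE 0.70, adjusted p = 0.440, edgeR). At this depth no difference was detected for Twist1.

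RefSeq promoters (GRCm38.p6) were examined for 4 of the 10 genes, Snai1, Zeb2, Twist1 and Vim. Snai2, Cdh1, Cdh3 and Esrp1 had no entry. Zeb1 and Cdh2 were left out of the search, so nothing is said here about their promoters. The 250 bases before the start are shown for the rare factors Snai1, Zeb2 (its farthest upstream start) and Twist1, since SNAIL, ZEB and TWIST factors bind E-boxes and are known to act on each other's genes. The sequences run 5′ to 3′ in the direction of the gene. Capitals mark the E-box letters CACCTG or CAGGTG, the letters CCAAT or ATTGG, and the letters TATAAA or TTTATA, each pair being the same motif on both strands, with no overlap between matches.
Snai1 (chr2:167537945-167538194, plus strand): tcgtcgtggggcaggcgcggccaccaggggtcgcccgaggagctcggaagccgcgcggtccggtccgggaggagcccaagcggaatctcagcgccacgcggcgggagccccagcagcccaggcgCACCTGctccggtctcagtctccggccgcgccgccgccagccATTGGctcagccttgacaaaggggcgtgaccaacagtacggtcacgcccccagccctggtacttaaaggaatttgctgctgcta
Zeb2 (chr2:45117443-45117692, minus strand): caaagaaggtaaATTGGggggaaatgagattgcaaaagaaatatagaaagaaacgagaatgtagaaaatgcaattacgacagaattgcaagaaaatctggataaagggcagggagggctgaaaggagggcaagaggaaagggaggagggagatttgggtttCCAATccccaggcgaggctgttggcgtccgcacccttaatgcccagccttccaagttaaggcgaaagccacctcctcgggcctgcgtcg
Twist1 (chr12:33957421-33957670, plus strand): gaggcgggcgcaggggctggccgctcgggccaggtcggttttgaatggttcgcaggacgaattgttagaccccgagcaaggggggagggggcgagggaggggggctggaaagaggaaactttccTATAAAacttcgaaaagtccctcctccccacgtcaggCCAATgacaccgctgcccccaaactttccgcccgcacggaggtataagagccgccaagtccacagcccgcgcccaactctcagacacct
CACCTG stands 126 bases before the start of Snai1, and E-box letters of this kind were found in 17.2% of 32851 windows of the same length. The windows of Zeb2 and Twist1 hold none. CCAAT or ATTGG was found in the 3 windows shown, beside 33.8% of the 32851 windows, and TATAAA in that of Twist1, beside 12.4% of them. The windows of the other 3 starts of Zeb2 hold none of these motifs, and that of Vim, not shown, holds CCAAT or ATTGG 2 times and TATAAA or TTTATA 1 time. Unlike the 3 windows shown, these windows of Zeb2 and Vim do not lie wholly upstream of the annotated gene region. A match is a description of the letters and not of binding.

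Vim (ENSMUSG00000026728, chromosome 2, 13573927 to 13582826) was read at 6.08, 7.76, 7.39 and 5.28 RPKM at 1 week and at 10.02, 9.22, 12.8 and 5.41 RPKM at 3 weeks. At 3 weeks 3 samples were above all 1-week samples, and replicate 4 was not. The means were 6.63 ± 1.15 and 9.36 ± 3.04 RPKM (SD, n = 4). The log2 fold change of 0.69 (SE 0.27, adjusted p = 0.0847, edgeR) did not pass. It passed in 2 of 16 alternatives, DESeq2 (0.69, adjusted p = 0.0481) and the fit without 3 weeks replicate 4 (0.89, adjusted p = 0.00892). Without 3 weeks replicate 3 the value was 0.41 (adjusted p = 0.187). Melanocytes and fibroblasts also carry vimentin, as do pericytes and smooth muscle cells. Between 1 and 3 weeks the range of summed markers was lower for melanocytes, and higher for fibroblasts (3.89 to 7.04 against 5.63 to 15.6 RPKM) and for pericytes and smooth muscle (1.65 to 3.01 against 2.22 to 12.6 RPKM). Without Postn the fibroblast sum was 3.72 to 6.67 against 2.73 to 6.00 RPKM. Their part in the Vim level was not tested. By the smallest mean absolute difference of centred log2 CPM, reads scaled to the library, over the 8 samples, among 8742 genes, the profiles most like that of Vim were those of Ap1s2 (0.131), Efemp2 (0.134) and Tead2 (0.140), with a median of 0.484 for all these genes.

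E-cadherin was the most abundant of the 10 genes at both times. Cdh1 (ENSMUSG00000000303, chromosome 8, 106603351 to 106670246) was read at 155, 223, 190 and 204 RPKM at 1 week and at 297, 239, 134 and 380 RPKM at 3 weeks. The 3-week samples spanned the 1-week range, with 3 of them above it and replicate 3 below it. The means were 193 ± 29.0 and 262 ± 103 RPKM (SD, n = 4), and the log2 fold change of 0.58 (SE 0.26, adjusted p = 0.116, edgeR) did not pass. A fall of Cdh1 was seen in none of the 16 alternatives, whose values ran from 0.36 to 0.80. Cdh1 passed as higher without 3 weeks replicate 3 (0.76, adjusted p = 0.0159) and on the shared preparations (0.80, adjusted p = 0.0436, 6 samples), while the fit without 3 weeks replicate 4 gave 0.38 (adjusted p = 0.231). The profiles most like it were those of Dnajb12 (0.0645), Gaa (0.0810) and Kansl1 (0.0829), with a median of 0.457 over all genes compared.

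Cdh3 (ENSMUSG00000061048, chromosome 8, 106510891 to 106557297), the gene of P-cadherin next to Cdh1, was at 31.2, 40.9, 42.6 and 50.04 RPKM at 1 week and at 47.2, 33.4, 12.3 and 61.1 RPKM at 3 weeks. The highest and the lowest value were both at 3 weeks, in replicates 4 and 3. The log2 fold change was 0.03 (SE 0.37, adjusted p = 0.954, edgeR). Its sign turned in 7 of 16 alternatives, among them to -0.12 with the replicate block and to -0.30 on the log2(RPKM + 0.1) scale. On that scale the median of all tested genes was -0.16, against 0.03 after TMM. Relative to their group means, 3 weeks replicates 3 and 4 deviated by -1.27 and 0.82 for Cdh3 and by -0.72 and 0.57 for Cdh1. Cdh3 and Cdh1 have 4384 and 4574 bases of exon. Over 2149 genes with 4000 to 6000 bases of exon, the median deviation was 0.02 in 3 weeks replicate 3 and -0.04 in 3 weeks replicate 4. The part of the length pattern of these 2 samples in both genes was not tested.

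Cdh2 (ENSMUSG00000024304, chromosome 18, 16588877 to 16809246), the gene of N-cadherin, was read at 0.710, 0.933, 1.54 and 1.16 RPKM at 1 week and at 9.15, 7.48, 5.54 and 6.60 RPKM at 3 weeks. The lowest 3-week sample, replicate 3, was well above the highest 1-week sample, also a replicate 3. Cdh2 rose 7.42-fold (log2 fold change 2.89, SE 0.25, adjusted p = 0.000211, edgeR), and passed in all 16 alternatives. Uniquely mapped reads made up 67.7% of its exon reads and gave 2.82 (adjusted p = 0.000290). Reads across exon-exon junctions numbered 22, 27, 43 and 36 at 1 week and 311, 223, 184 and 183 at 3 weeks, and reads on introns numbered 0, 1, 2 and 0 against 13, 5, 30 and 5. The gene on the opposite strand, Gm15485, had no read.

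The switch from E- to N-cadherin, a sign of EMT, can be read as a share. Of the summed RPKM of Cdh1, Cdh3 and Cdh2, Cdh2 made up 0.380%, 0.352%, 0.657% and 0.454% in the 1-week samples and 2.59%, 2.67%, 3.64% and 1.48% in the 3-week samples. Cdh1 was still 218, 239, 124 and 176 times Cdh2 at 1 week, and 32.5, 32.0, 24.2 and 57.5 times at 3 weeks. Thus the groups did not overlap, and E-cadherin RNA exceeded N-cadherin RNA in every sample. The share of Cdh3 was between 15.4% and 19.6% at 1 week and lower, between 8.11% and 13.7%, at 3 weeks. That of Cdh1 was between 80.0% and 84.2% at 1 week and between 84.1% and 88.2% at 3 weeks. The ratio of Cdh1 to Vim overlapped widely, at 25.5, 28.8, 25.7 and 38.7 at 1 week and 29.7, 25.9, 10.5 and 70.1 at 3 weeks, where replicates 3 and 4 were again the extremes. These shares were described and not tested.

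**Figure D3:**
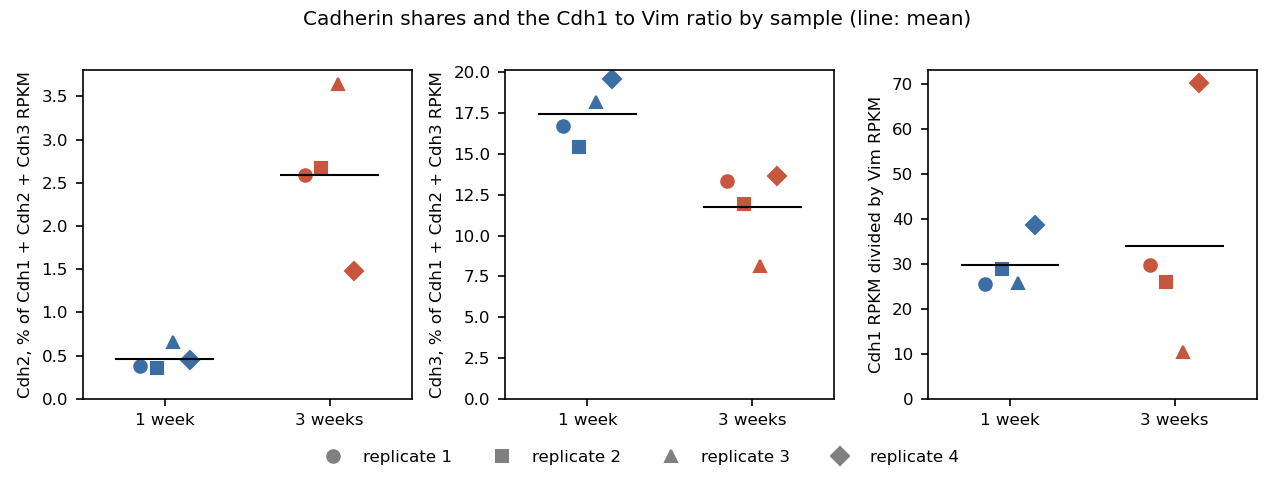
Share of Cdh2 (left) and of Cdh3 (middle) in the summed RPKM of Cdh1, Cdh2 and Cdh3, in percent, and the ratio of Cdh1 to Vim RPKM (right), for the 4 samples at 1 week (blue) and the 4 at 3 weeks (red), with a line at the mean. The Cdh2 share is 0.352% to 0.657% at 1 week and 1.48% to 3.64% at 3 weeks, the Cdh3 share is lower at 3 weeks, and the Cdh1 to Vim ratio overlaps, from 10.5 to 70.1 at 3 weeks.

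Esrp1 (ENSMUSG00000040728, chromosome 4, 11331933 to 11386783) encodes an RNA-binding protein that keeps the epithelial splice forms of its targets. It was at 32.7, 40.3, 28.6 and 31.2 RPKM at 1 week and at 23.6, 21.4, 16.7 and 24.9 RPKM at 3 weeks, all of them lower than any 1-week value. The fall was small, with a log2 fold change of -0.46 (SE 0.14, adjusted p = 0.0331, edgeR) or 1.38-fold. Unique reads made up 65.3% of its exon reads, and a fit on unique reads gave -0.53 (adjusted p = 0.0251). The gene on the opposite strand, Gm26663, had at most 4 exon reads in a sample. The call was lost on the shared preparations (-0.33, adjusted p = 0.164) and with the replicate number as a block (-0.46, adjusted p = 0.0801). It was also lost in edgeR without replicate 1 (-0.48, adjusted p = 0.0737), 2 (-0.37, adjusted p = 0.0888) or 4 (-0.49, adjusted p = 0.0597) of the 1-week group and without replicate 1 (-0.49, adjusted p = 0.0571) or 2 (-0.44, adjusted p = 0.0933) of the 3-week group. The profiles most like that of Esrp1 were those of Sh3bp4 (0.0544), Wdr11 (0.0561) and Reps1 (0.0572), with a median of 0.357 over all genes compared.

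Intron reads come mostly from RNA that is not yet spliced and were fitted apart, over 4016 genes, of which 8.76% passed. Only Cdh1, Cdh3 and Esrp1 had enough of them, and 1 of these 3 passed. Esrp1 had 60, 73, 49 and 63 intron reads at 1 week and 48, 19, 38 and 53 at 3 weeks, and fell by 0.96 on the log2 scale (SE 0.28, adjusted p = 0.0482, edgeR). That call too was lost with the replicate block (-0.99, adjusted p = 0.0842) and without any replicate of the 1-week group or replicates 1 or 2 of the 3-week group, with adjusted p from 0.0820 to 0.132 (edgeR). Cdh1 had 44, 61, 37 and 43 intron reads against 96, 71, 105 and 83, with a log2 fold change of 0.65 (SE 0.27, adjusted p = 0.149, edgeR). Cdh3 had 41, 53, 45 and 60 against 119, 112, 97 and 83, with 0.78 (SE 0.27, adjusted p = 0.0885, edgeR), and 0.92 (adjusted p = 0.0275) without 3 weeks replicate 4. Divided by all intron reads of the sample, all 3 genes were without overlap between the groups, compared with 19.4% of the genes tested on introns. The intron reads of Cdh1 and Cdh3 in 3 weeks replicate 3, 105 and 97, were the highest and the third highest of the 3-week samples, whereas the exon values of this sample were the lowest.

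**Figure D4:**
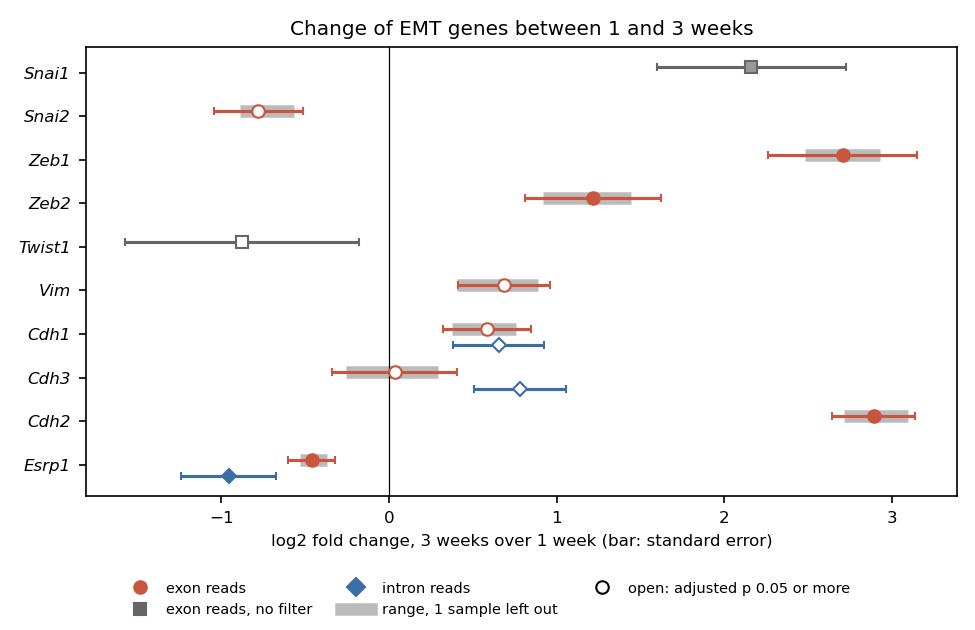
Log2 fold change, 3 weeks over 1 week, with its standard error (horizontal axis) for the 10 EMT genes, from exon reads (red circles), from exon reads without a filter for the 2 genes below it (grey squares) and from intron reads (blue diamonds), with grey bands for the range over fits that leave out 1 sample. Filled symbols passed the adjusted p threshold of 0.05; Cdh2 (2.89), Zeb1 (2.71) and Snai1 (2.16) lie far to the right, and Esrp1 (-0.46 and -0.96) to the left.

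Other genes of the pathway were taken from 7 lists with 81 genes, of which 66 could be tested, 17 rose and 4 fell, beside 15.7% higher and 17.0% lower among all tested genes. On the log2(RPKM + 0.1) scale 14 rose and 8 fell, and without 3 weeks replicate 4, 18 rose and 11 fell. The median log2 fold change was 0.19 over these 66 genes and 0.03 over all tested genes. Of 14 other EMT transcription factors, 12 were tested, 1 rose and 2 fell, with a median of -0.33, and neither count stands above these shares. Snai3, the third SNAIL gene, fell from 4.24 ± 1.34 to 0.696 ± 0.416 RPKM (SD, n = 4), and the log2 fold change was -2.42 (SE 0.50, adjusted p = 0.00650, edgeR). Snai3 could be tested in 15 of the 16 alternatives and passed in each. On unique exon reads, where 9 genes of this list were tested, it was below the filter. Its fall was therefore not tested on uniquely mapped reads. Prrx1, a homeobox factor of mesenchyme, was low and fell from 0.280 ± 0.117 to 0.0641 ± 0.0230 RPKM (SD, n = 4; log2 fold change -1.96, adjusted p = 0.00851, edgeR). Klf8, a zinc finger factor reported to repress Cdh1, rose from 1.14 ± 0.257 to 3.13 ± 1.30 RPKM (SD, n = 4; log2 fold change 1.64, adjusted p = 0.00929, edgeR), with replicate 4 inside the 1-week range.

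Of 11 epithelial factors that oppose EMT, all were tested, 1 fell and 0 rose, beside 17.0% and 15.7% of all tested genes, with a median of -0.04. At an unadjusted p under 0.05, 3 were lower and 0 higher in edgeR, and in DESeq2 1 fell and 0 rose. Ovol1, a repressor of Zeb1, fell from 8.99 ± 5.61 to 1.62 ± 0.619 RPKM (SD, n = 4). Its log2 fold change was -2.33 (SE 0.45, adjusted p = 0.00472, edgeR), and all 16 alternatives kept the call. Without 3 weeks replicate 4, 3 genes of this list fell. The related factors were Esrp2, the paralogue of Esrp1, at 17.8 ± 1.77 and 17.5 ± 4.76 RPKM (log2 fold change 0.13, adjusted p = 0.593, edgeR) and Ovol2 at 2.22 ± 0.242 and 1.98 ± 0.145 RPKM (0.0011, adjusted p = 0.997), both named as close relatives and outside the rule for naming genes (SD, n = 4).

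The next list holds the catenins, which bind the inner tail of cadherins, and the linkers Vcl and Afdn. Ctnna1, Ctnnb1, Ctnnd1 and Jup averaged between 134 and 149 RPKM at 1 week and between 157 and 188 RPKM at 3 weeks, while Ctnna2 was under 1 RPKM in every sample. Of 7 listed genes, 6 were tested and 2 rose, beside 15.7% of all tested genes, with a median of 0.45. Ctnnb1 (beta-catenin) rose from 134 ± 14.7 to 173 ± 7.35 RPKM (SD, n = 4; log2 fold change 0.54, SE 0.13, adjusted p = 0.0152, edgeR). Its call was lost without 1 week replicate 2 (0.48, adjusted p = 0.0525), with the replicate block (0.54, adjusted p = 0.0640) and on the shared preparations (0.42, adjusted p = 0.145). Vcl, the gene of the actin linker vinculin, rose from 22.9 ± 4.76 to 45.9 ± 19.2 RPKM (SD, n = 4; log2 fold change 1.15, adjusted p = 0.0170, edgeR), and lost the call without 1 week replicate 1 (1.02, adjusted p = 0.0621), with the replicate block (1.08, adjusted p = 0.0652) and on the log2(RPKM + 0.1) scale in limma (0.91, adjusted p = 0.0660). Without 3 weeks replicate 3, 4 genes of this list rose.

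Of 10 other cadherins, 3 were tested and 9 were under 1 RPKM in every sample. The exception, Cdh11, was at 1.33 ± 0.440 and 1.34 ± 0.477 RPKM (SD, n = 4). Cdh10, a type II cadherin, had 0.0151 ± 0.0113 RPKM in the 1-week group and 0.319 ± 0.200 RPKM in the 3-week group (SD, n = 4; adjusted p = 0.00208, edgeR). Like Zeb1, it passed the filter on low counts through the 3-week group. It had 11 exon reads in all at 1 week and 222 at 3 weeks, a ratio of 21.8 per mapped read (exact 95% interval 12.0 to 44.4, counting error only). Cdh13, the GPI-anchored T-cadherin, fell from 0.241 ± 0.122 to 0.0765 ± 0.0374 RPKM (SD, n = 4; log2 fold change -1.52, adjusted p = 0.0348, edgeR). Its call was lost on the shared preparations (-0.91, adjusted p = 0.121) and on the log2(RPKM + 1) scale in limma (-0.20, adjusted p = 0.0654). It was also lost without 1 week replicates 2 (-1.20, adjusted p = 0.0970) or 4 (-1.41, adjusted p = 0.0847) and without 3 weeks replicates 1 (-1.48, adjusted p = 0.0843), 2 (-1.61, adjusted p = 0.0657) or 3 (-1.28, adjusted p = 0.0513), in edgeR.

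All 15 epithelial junction and surface genes were tested. Of these 3 rose and none fell, with a median of 0.31. The count that rose is near the 15.7% of all tested genes. At an unadjusted p under 0.05, 5 were higher and 0 lower in edgeR, and in DESeq2 3 rose and 0 fell. Cldn4, a claudin of tight junctions, rose from 614 ± 104 to 975 ± 86.1 RPKM (SD, n = 4; log2 fold change 0.84, adjusted p = 0.00687, edgeR). Epcam, an epithelial surface protein, rose from 281 ± 45.98 to 419 ± 46.8 RPKM (SD, n = 4; log2 fold change 0.74, adjusted p = 0.00591, edgeR). Crb3, a polarity protein, rose from 18.2 ± 2.03 to 26.0 ± 3.34 RPKM (SD, n = 4; log2 fold change 0.68, adjusted p = 0.0117, edgeR), a call lost on the shared preparations (0.55, adjusted p = 0.0693). Without 3 weeks replicate 3, 6 genes of the list rose and none fell, and without 3 weeks replicate 4, 3 rose and 2 fell.

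Of 18 mesenchymal genes 17 were tested, 10 rose and none fell, beside 15.7% and 17.0% of all tested genes, with a median of 0.99, the highest of the 7 lists. At an unadjusted p under 0.05, 10 were higher and 2 lower in edgeR, and in DESeq2 10 rose and 1 fell. Acta2, the smooth muscle actin, rose from 260 ± 93.1 to 2049.6 ± 670.6 RPKM (SD, n = 4; log2 fold change 3.15, SE 0.37, adjusted p = 0.000585, edgeR). Postn, a matrix protein, rose from 0.349 ± 0.124 to 5.34 ± 3.32 RPKM (SD, n = 4; log2 fold change 4.07, adjusted p = 0.000615, edgeR). Fn1 (fibronectin) was at 11.9, 14.1, 28.5 and 11.0 RPKM at 1 week and at 929, 314, 101 and 294 RPKM at 3 weeks. Its log2 fold change was 4.78 (SE 0.68, adjusted p = 0.00117, edgeR). The other 7 genes that rose had log2 fold changes between 0.79 and 2.53. The fibrillar collagen genes Col1a1, Col1a2 and Col3a1, which are also fibroblast markers, were between 0.350 and 1.24 RPKM on average at 1 week and between 0.215 and 1.58 RPKM at 3 weeks, and none passed. Postn belongs to the fibroblast list as well, whose other 9 markers summed to between 3.72 and 6.67 RPKM at 1 week and between 2.73 and 6.00 RPKM at 3 weeks. The pericyte and smooth muscle markers summed to 1.65 to 3.01 RPKM at 1 week and 2.22 to 12.6 RPKM at 3 weeks. Of these 6 markers, Notch3 rose (log2 fold change 1.72, adjusted p = 0.0472, edgeR), Pdgfrb (-1.74, adjusted p = 0.0102) and Cspg4 (-2.23, adjusted p = 0.0185) fell, and Rgs5 and Des were at most 0.127 and 0.162 RPKM. Myh11, the smooth muscle myosin heavy chain, was below the filter, at 0.0290 ± 0.0127 and 0.778 ± 0.687 RPKM (SD, n = 4). The part of other cell types in the rise of these genes was not tested. With the replicate block 8 genes of this list rose. Of 6 further intermediate filament genes, 5 were under 1 RPKM in every sample, 2 were tested (Plec and Synm, median 0.05) and none passed, with values of -0.19 (adjusted p = 0.848) and 0.29 (adjusted p = 0.596) in edgeR. None of the 2 passed at an unadjusted p under 0.05 or in DESeq2.

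**Figure D5:**
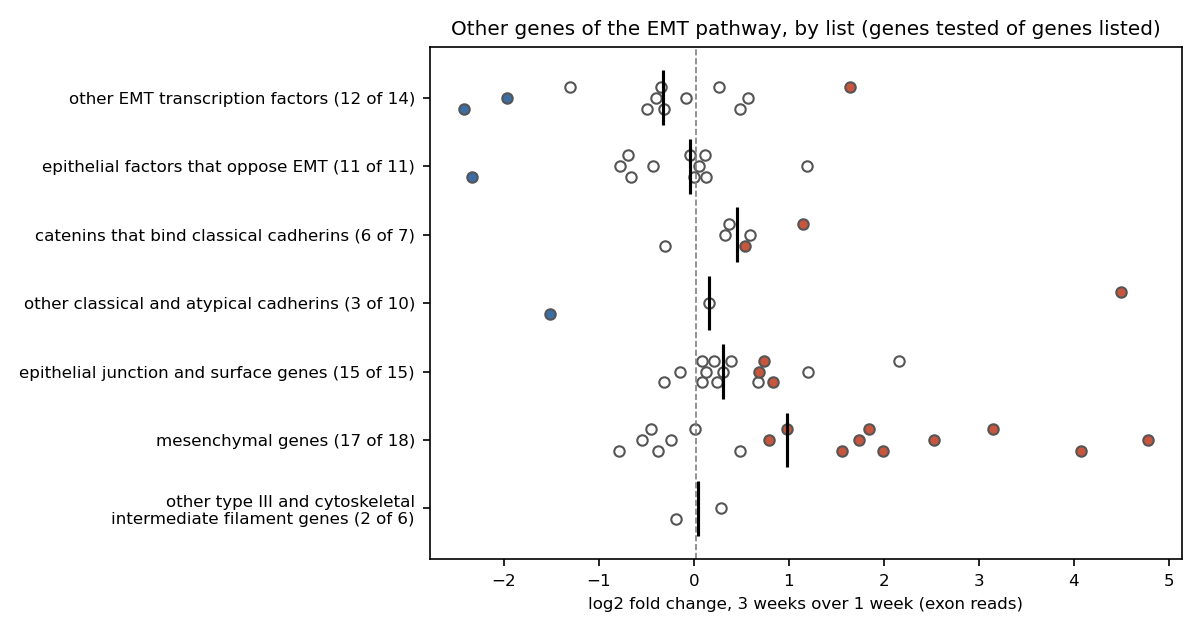
Log2 fold change, 3 weeks over 1 week (horizontal axis), of each tested gene of 7 EMT-related lists (rows, with the number tested of the number listed), where filled points passed the adjusted p threshold of 0.05 (red higher, blue lower), black bars mark list medians and the dashed line marks the median of all tested genes. The mesenchymal list has the highest median (0.99) with 10 filled points on the right, while the epithelial factors are centred near 0 (-0.04) with 1 filled point on the left.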

How the data were processed

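Per the labels and the methods of the paper, poly(A) libraries of 8 KC samples were sequenced, trimmed reads were aligned to GRCm38 (the build also given in the submitters' processing notes) in the CLC Genomics Workbench at default settings, and the authors deposited whole counts of reads per gene (exon, unique exon, intron and junction counts, without normalization) and RPKM values written with decimal commas. The annotation release and the use of strand are not given in the sources used here. Other columns were not used.

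Exon counts of all 41457 genes were fitted unpaired with edgeR 4.0.16 (R 4.3.3; filterByExpr at its minimum count of 10, TMM, glmQLFit, glmQLFTest, Benjamini-Hochberg), and intron counts apart in the same way. The procedure was tested on simulated data. Alternatives were blocks on the replicate number or on a number in the deposited file names (3 numbers occur in both groups), which no source used here defines and which was taken as the preparation, since the paper describes the same KC batches at both times, DESeq2 1.42.0, RLE normalization, no filter beyond 1 read in any sample, unique reads, limma 3.58.1 on log2(RPKM + 0.1) or log2(RPKM + 1), and the omission of each sample. Named genes of the lists are the 3 with the smallest adjusted p among those past the threshold, and any that moved against most of their list. The genes, lists and markers were chosen with earlier results of these data known. Figures were drawn with matplotlib 3.10.9 in Python 3.11.15. The smallest chi-square per degree of freedom between replicates was 14.6, so each sample was counted once.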

Additional observations from a re-analysis of the deposited data

How the results depend on the processing

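Of the 4 calls among the EMT genes, those of Cdh2 and Zeb1 held in all 16 alternatives, that of Esrp1 in 9 and that of Zeb2 in 5. Zeb1 entered the main fit through its 3-week samples, and the fit without the filter gave 2.66 (adjusted p = 0.00268, edgeR). The number of EMT genes that fell was 0 on the shared preparations and 2 with DESeq2, without the filter, on unique reads and on both RPKM scales, and DESeq2 called 6 in all. In intron reads without the filter, 1 gene (Cdh2) rose and 0 fell, with 5 at an unadjusted p under 0.05 in edgeR. With single samples left out, between 2 and 6 EMT genes, between 18 and 29 genes of the lists, and between 0 and 2 EMT genes in intron reads passed (edgeR). In the intron fits in which 0 passed, 2 or 3 of the 3 genes had an unadjusted p under 0.05. With the replicate block 3 EMT genes passed on exon reads, 17 genes of the lists passed, and 0 passed on intron reads, where 3 had an unadjusted p under 0.05 in edgeR. The same replicate numbers do not pair the samples by the deposited values. Across genes, deviations from the group mean correlated between -0.227 and 0.249 in the 4 pairs with the same number, not every sample correlated best with its own number, and those of the 3 shared preparations ranged over the same values. The block lowered the number of genes called over the whole table from 4127 to 2867, and among the EMT genes it removed Zeb2 and Esrp1 and added Snai2. The sign of Cdh3 turned negative with the replicate block (-0.12), without the filter (-0.014), on the log2(RPKM + 0.1) scale (-0.30), on the log2(RPKM + 1) scale (-0.28) and in 3 of 8 fits with a sample left out, whose values ran from -0.26 to 0.29. The cause was not tested, and in no setting did it pass.

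Depth limited Snai1, Twist1, Zeb1 and Zeb2, which had at most 65 exon reads in a sample, and the intron reads of 7 of the 10 genes, which were below the filter.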

Other observations

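None of the 20 groups of 4 RPKM values of the EMT genes held a sample beyond Dixon's 95% critical value for 4 samples, where chance alone would mark about 1 in 20 groups. The ratio came closest in Zeb2 at 1 week (0.682, replicate 3, 0.0768 RPKM).

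Among the 12 tested factors on the list of other EMT transcription factors, Twist2, a relative of Twist1, had means of 0.440 ± 0.203 and 0.156 ± 0.0960 RPKM (SD, n = 4; log2 fold change -1.31, adjusted p = 0.0976, edgeR). Sox9, Sox4, Hmga2 and Tcf3 were the most abundant of that list, between 19.1 and 61.3 RPKM on average at 1 week and between 13.9 and 42.5 RPKM at 3 weeks, and none of them passed (adjusted p from 0.0554 to 0.404, edgeR). These genes were chosen after their values were seen. The epithelial factors Klf4 (35.7 ± 8.63 and 20.4 ± 7.09 RPKM, log2 fold change -0.66, adjusted p = 0.0801) and Trp63 (26.2 ± 6.34 and 14.6 ± 5.24 RPKM, log2 fold change -0.69, adjusted p = 0.0809, edgeR; SD, n = 4) did not pass either. Axl, a receptor tyrosine kinase on the mesenchymal list, had means of 183 ± 31.2 and 120 ± 17.2 RPKM without overlap (SD, n = 4). Its log2 fold change of -0.45 (adjusted p = 0.0576, edgeR) did not pass the threshold and was opposite in sign to the 10 genes of that list that rose.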
